A study of Homo sapiens with 8 samples.

Results

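The persistent AML1-ETO only distal regions are the places away from gene starts where AML1-ETO was called both early and late after induction and where ETO2-GLIS2 was called at neither time. They were selected on the deposited peak lists. An AML1-ETO peak at 48 h had to have a −log10 q of at least 10 and a width under 8000 bp. It had to share at least 1 bp with an AML1-ETO peak at 12 h and no bp with an ETO2-GLIS2 peak at 12 h or 48 h. Its summit, the base with the highest signal, had to lie more than 1 kb from every annotated transcription start site. On chromosomes 1 to 22 this left 4940 regions of the 104677 AML1-ETO peaks at 48 h (4.72%). The −log10 q at 48 h, the width, the presence of a peak at 12 h and the absence of ETO2-GLIS2 peaks chose these regions, so values of those measures are given as a description.

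The libraries came from U937, a human monoblastic leukaemia line. Stable single-cell clones made with a doxycycline-inducible retroviral vector expressed either AML1-ETO (clone #4) or ETO2-GLIS2 (clone #14), each with an HA tag at the N-terminus. All groups received doxycycline at 5 µg/ml, for 12 h or for 48 h, and chromatin was precipitated with anti-HA beads. Each fusion protein and time had 1 ChIP library and 1 input library, 8 libraries in all. There was therefore no replicate of any list, each fusion protein was represented by 1 clone, and clone and fusion protein cannot be told apart. The text of the treatment label gave 48 h for every sample, and times were taken from the sample titles.

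AML1-ETO joins the Runt domain of RUNX1, which binds DNA at the sequence TGTGGT or TGCGGT, to most of ETO (RUNX1T1), a protein that brings corepressor complexes with histone deacetylases to DNA. ETO2-GLIS2 joins part of a relative of ETO to the zinc fingers of GLIS2, so the fusion proteins have related corepressor parts and unrelated DNA-binding parts. ETO2-GLIS2 lacks the conserved domain NHR4 that AML1-ETO has. The study proposes that this may limit its recruitment of corepressors. RUNX1 normally works in myeloid cells at enhancers, distal regulatory stretches where it sits beside PU.1, C/EBP and AP-1 factors.

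Of the 104677 peaks at 48 h, 24845 reached the −log10 q of 10, 24167 of those were narrower than 8000 bp, 22074 overlapped a 12 h peak, 6534 had no ETO2-GLIS2 peak, and 4940 were distal. Peaks of AML1-ETO on these chromosomes covered 50.4 Mb at 12 h (70063 peaks) and 95.1 Mb at 48 h, those of ETO2-GLIS2 17.1 Mb (28019) and 19.9 Mb (29784). The lists hold no read numbers. The study lists read totals for each library, which were not used here, and the later ETO2-GLIS2 library has the fewest reads of the ChIP libraries there. The absence of an ETO2-GLIS2 peak means that none was called, in lists that were shorter throughout. For comparison, 1193 distal AML1-ETO peaks within the same limits on −log10 q and width had no 12 h peak and no ETO2-GLIS2 peak (48 h only regions), and 5681 had a 12 h peak and an ETO2-GLIS2 peak at 48 h (shared regions).

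Sequences are shown for 3 kinds of region that the results turn on. Each is the 200 bp around the 48 h summit on the plus strand of GRCh37 (hg19). The first kind, shown because they are the densest form of the Runt sequence under strong peaks, are arrays of the exact Runt site. Capitals mark TGTGGT or TGCGGT on either strand.
Intron of SEMA4D, chr9:91986755-91986954: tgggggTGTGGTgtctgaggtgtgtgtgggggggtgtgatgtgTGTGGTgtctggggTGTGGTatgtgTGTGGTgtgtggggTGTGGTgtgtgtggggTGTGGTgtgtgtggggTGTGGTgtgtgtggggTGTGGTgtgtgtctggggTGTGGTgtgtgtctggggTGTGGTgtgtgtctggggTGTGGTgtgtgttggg
113626 bp downstream of the start of BDH1, chr3:197186468-197186667: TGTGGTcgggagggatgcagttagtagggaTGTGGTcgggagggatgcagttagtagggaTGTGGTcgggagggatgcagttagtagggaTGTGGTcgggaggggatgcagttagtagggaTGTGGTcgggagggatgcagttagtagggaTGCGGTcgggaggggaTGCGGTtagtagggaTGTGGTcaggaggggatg
41870 bp downstream of the start of KCNF1, chr2:11093830-11094029: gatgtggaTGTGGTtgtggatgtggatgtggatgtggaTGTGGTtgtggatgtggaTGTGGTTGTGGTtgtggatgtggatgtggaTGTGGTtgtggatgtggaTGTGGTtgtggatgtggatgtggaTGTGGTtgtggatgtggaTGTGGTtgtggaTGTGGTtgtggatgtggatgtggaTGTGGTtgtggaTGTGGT
Intron of B3GNTL1, chr17:80929690-80929889: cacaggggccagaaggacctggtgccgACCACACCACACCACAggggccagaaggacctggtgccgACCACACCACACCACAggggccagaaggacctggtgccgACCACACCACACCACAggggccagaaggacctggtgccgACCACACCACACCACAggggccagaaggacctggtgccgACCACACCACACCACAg
The SEMA4D and KCNF1 windows each hold 11 exact sites, the B3GNTL1 window holds 15 and the BDH1 window holds 8. In the 1 kb around the summit the counts were 37, 24, 59 and 31. In the 400 bp around the summit, the repeat unit that best matched itself was 39 bp long at B3GNTL1, 30 bp at BDH1 and 18 bp at SEMA4D and KCNF1.

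The second kind are arrays with no exact 6-base site, shown because the strongest fold enrichment of all 4940 regions lies in one of them. Here the capitals mark the 5-base core GTGGT, or ACCAC where it is on the other strand.
Intron of COL4A2, chr13:111037895-111038094: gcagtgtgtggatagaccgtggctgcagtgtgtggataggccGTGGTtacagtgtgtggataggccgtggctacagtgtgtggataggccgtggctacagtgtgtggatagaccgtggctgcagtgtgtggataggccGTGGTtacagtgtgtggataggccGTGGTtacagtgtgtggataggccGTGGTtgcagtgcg
Intron of SOD2, chr6:160132472-160132671: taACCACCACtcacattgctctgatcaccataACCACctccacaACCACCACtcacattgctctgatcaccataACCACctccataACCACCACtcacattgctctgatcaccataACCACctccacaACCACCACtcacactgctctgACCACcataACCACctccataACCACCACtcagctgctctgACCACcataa
Intron of PRKCA, chr17:64794846-64795045: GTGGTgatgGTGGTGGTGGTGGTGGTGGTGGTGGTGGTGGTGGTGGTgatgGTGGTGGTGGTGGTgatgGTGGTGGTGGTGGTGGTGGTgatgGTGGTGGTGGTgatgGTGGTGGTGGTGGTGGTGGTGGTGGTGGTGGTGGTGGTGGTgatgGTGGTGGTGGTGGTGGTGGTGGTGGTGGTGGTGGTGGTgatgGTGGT
The COL4A2 window, a 24 bp repeat, holds 4 cores and none of the exact sites. In the 400 bp around its summit, bases 24 bp apart matched at 94.7%. The SOD2 window, a 42 bp repeat, holds 16 cores. The PRKCA window is a run of GGT triplets with 52 overlapping cores, one of the densest windows without an exact site.

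The third kind are regions without arrays, shown as examples of regions in which 1 or 2 sites lie near the summit. Capitals again mark TGTGGT or TGCGGT on either strand.
16079 bp downstream of the start of RNASE2, chr14:21439625-21439824: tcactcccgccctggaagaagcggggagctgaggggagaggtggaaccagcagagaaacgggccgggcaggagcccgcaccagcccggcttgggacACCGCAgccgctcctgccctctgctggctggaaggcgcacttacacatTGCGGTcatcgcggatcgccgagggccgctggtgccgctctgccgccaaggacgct
Exon of ANKRD44, chr2:198063700-198063899: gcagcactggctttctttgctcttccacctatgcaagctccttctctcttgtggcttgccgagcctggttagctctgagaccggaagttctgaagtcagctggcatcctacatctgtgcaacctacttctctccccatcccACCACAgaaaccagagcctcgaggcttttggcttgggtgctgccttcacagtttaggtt
89158 bp downstream of the start of KIT, chr4:55612492-55612691: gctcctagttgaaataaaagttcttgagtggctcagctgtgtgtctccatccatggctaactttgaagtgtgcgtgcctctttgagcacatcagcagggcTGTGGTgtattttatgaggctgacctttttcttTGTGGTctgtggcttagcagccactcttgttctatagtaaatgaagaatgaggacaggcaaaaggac
102672 bp upstream of the start of CD44, chr11:35057657-35057856: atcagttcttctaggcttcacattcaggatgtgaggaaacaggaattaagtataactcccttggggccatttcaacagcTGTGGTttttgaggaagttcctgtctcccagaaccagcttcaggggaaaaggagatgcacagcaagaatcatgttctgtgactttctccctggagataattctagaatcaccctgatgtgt
532620 bp upstream of the start of SPRY2, chr13:81447781-81447980: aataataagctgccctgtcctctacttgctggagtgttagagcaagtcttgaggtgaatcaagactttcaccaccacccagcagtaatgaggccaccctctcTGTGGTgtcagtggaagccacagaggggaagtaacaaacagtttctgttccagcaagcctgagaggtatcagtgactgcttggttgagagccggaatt
The RNASE2 window has 2 sites, both of the TGCGGT type, and the KIT window has 2 of the TGTGGT type. The ANKRD44, CD44 and SPRY2 windows have 1 each. The CD44 window also holds GAGGAAGT, the site preferred by PU.1, and the ANKRD44 window holds CCGGAAGT, a site of other ETS proteins. The RNASE2 window also holds, on the minus strand, the core site of CTCF, the protein that anchors chromatin loops. Of the 4940 regions, 85 (1.72%) had this core in the summit window. Other sequences in these windows are not listed. RNASE2, ANKRD44, SEMA4D, BDH1, KCNF1, COL4A2 and SOD2 are among the 10 regions with the highest −log10 q, and the others were picked after their values were seen.

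Most of the regions were modest peaks. Fold enrichment over input at 48 h had a median of 7.30 (quartiles 6.27 and 9.79, highest 67.2), and −log10 q a median of 17.6 (13.1 and 28.7, highest 805). Shared regions had medians of 12.6 and 44.2, and 48 h only regions 6.14 and 12.3. The persistent regions therefore lay between these classes, nearer to the weaker one. Of the 4940 regions, 650 (13.2%) were in the top 10% of the 48 h list. The 3 regions just above the −log10 q limit, at SLC20A2, SLC2A12 and SPTBN1, had values of 10.0, and the 3 peaks just below it that met the rest of the rule, nearest to BCL11A, SP3 and LTBP1, had 9.97. The widest region was 7361 bp, the next peak above the width limit 9708 bp. The summits closest to a start site were 1001 bp away, and the closest left out 1000 bp.

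At 12 h the strongest overlapping peak had a median fold of 6.08 and a median −log10 q of 10.5, and 2515 of the regions (50.9%, 95% exact interval 49.5 to 52.3) would have passed the limit of 10 at that time too. Fold was higher at 12 h than at 48 h in 1306 regions (26.4%). Peaks were wider at 48 h in 4074 (82.5%), with a median width of 1232 bp against 644 bp. Spearman's rho between the times was 0.52 for fold and 0.56 for −log10 q over the 4940 regions, a description of values from libraries of 1 clone. With 1 library per time, the change in level between 12 h and 48 h was not tested.

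**Figure D1:**
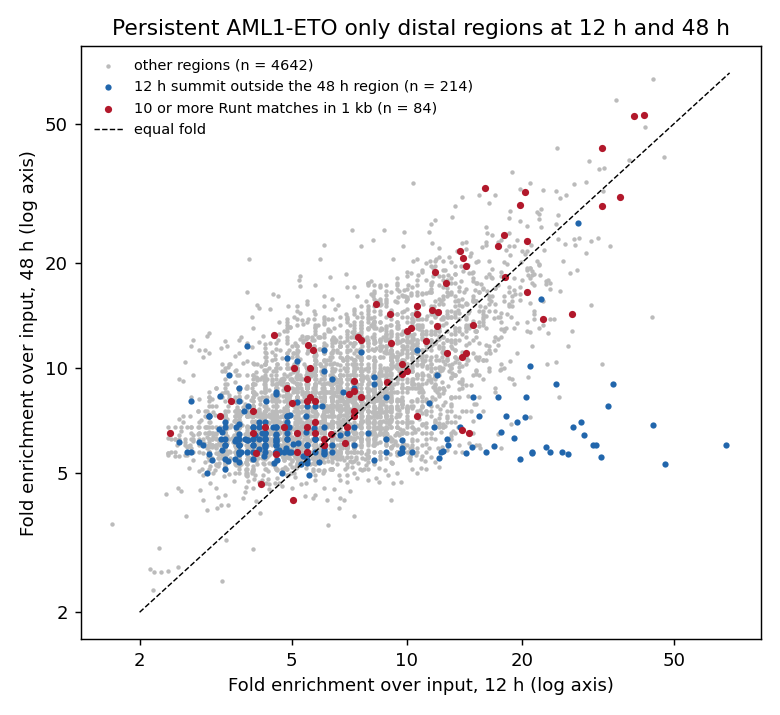
Fold enrichment over input at 12 h (x axis, log scale) and 48 h (y axis, log scale), 1 point per region, with the line of equal fold dashed. Most points lie above the line, red points are the 84 regions with 10 or more Runt matches in 1 kb, and blue points are regions whose strongest 12 h summit lay outside the 48 h region, some of them far to the right.

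Summits at the times lay close together. The median distance between the 48 h summit and the nearest overlapping 12 h summit was 48 bp (95% interval 44 to 53). The rule asked for 1 bp of shared sequence, and overlap by itself limits this distance. Where more than 1 peak at 12 h overlapped, as in 1223 regions (24.8%), the nearest summit was taken. The distance expected from overlap alone was not computed. In the stronger shared regions the median distance was 29 bp (28 to 31). In 3836 regions (77.7%) the summits were within 200 bp and in 303 (6.13%) they were more than 500 bp apart. In 215 regions (4.35%) the summit of the strongest overlapping 12 h peak lay outside the 48 h region, and for 58 of these 215 it lay in another AML1-ETO peak at 48 h that did overlap ETO2-GLIS2. Persistence of such a region rests on the edge of a 12 h peak.

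Of the 5 regions with the highest 12 h fold, 3 were such edge cases. The region in TGFB1, the gene of a cytokine that restrains growth and inflammation, had a 12 h fold of 68.7 and a 48 h fold of 6.02, with the 12 h summit 2932 bp away. The region near NRROS, a myeloid protein that tethers latent TGF-beta, had 47.4 and 5.33 with summits 2392 bp apart. The region in HPCAL1, a neuronal calcium sensor, had 44.1 and 6.87 at 1883 bp. In all 3 the 12 h summit lay in another 48 h peak that overlapped ETO2-GLIS2. In the other two the summits coincided or nearly so: in PCBP3, a poly(C)-binding protein gene, the fold was 47.1 at 12 h and 40.3 at 48 h with summits at the same base, and in COL4A2 it was 44.2 and 67.2 with summits 2 bp apart.

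The regions lay in introns more often, and in exons less often, than those of both comparison classes. Their summits were in introns in 62.2% (60.9 to 63.6), between genes in 32.6% (31.3 to 33.9) and in exons in 5.18% (4.58 to 5.84). The intron share was 3.66 percentage points higher than in 48 h only regions (Newcombe 95% interval 0.58 to 6.78) and 4.58 points higher than in shared regions (2.71 to 6.44). The exon share was lower by 2.61 points (−4.37 to −1.08) and 2.55 points (−3.47 to −1.61). The median distance from the summit to the nearest start site of any transcript was 8230.5 bp, and to the nearest protein-coding gene start 34317.5 bp.

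They were scattered. The median gap between neighbouring summits was 167741 bp, and 403 of 4918 gaps were under 10 kb. Density ran from 1.01 regions per Mb on chromosome 4 to 3.32 on chromosome 22. The share of all distal AML1-ETO peaks within the same limits on −log10 q and width did not follow this order. It was 43.1% on chromosome 4 (190 of 441) and 33.4% on chromosome 22 (116 of 347). Over the chromosomes it ran from 30.0% on chromosome 19 to 47.0% on chromosome 5. An ETO2-GLIS2 peak lay within 10 kb of 2455 regions (49.7%) and within 1 kb of 415 (8.40%), and 453 (9.17%) had none within 100 kb. The median distance was 10131 bp. These distances were not taken for other peaks or for the genome, so they are a description without a background.

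In percentage points, the Runt site differed most between the summits and their surroundings of the sequences searched. TGTGGT or TGCGGT, searched on both strands, was present in 2167 of 4940 summit windows of 200 bp (43.9%, exact interval 42.5 to 45.3) and in 1677 of 9880 windows 1 kb to either side (17.0%, 16.2 to 17.7). The difference was 26.9 points (25.3 to 28.5). Over all 200 bp windows of chromosomes 1 to 22 the share was 15.2%, and 18.6% when the windows were weighted to the GC content of the regions. The longer form TGTGGTT, which lies inside the shorter, was in 18.4% of summit windows against 3.48% of flanks, a ratio of 5.30, and in 3.82% of all windows. TGTGGT alone was in 38.4% against 14.6%, and TGCGGT alone in 7.83% against 2.76%. A match is a string of letters and was not tested as a bound site.

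Other sites of myeloid factors were also more frequent at the summits, by fewer points, although the ratio of summits to flanks was 2.58 for the Runt site, 2.78 for AP-1, 4.43 for GAGGAAGT and 11.3 for CTCF. GAGGAAGT, the site preferred by PU.1, the master ETS factor of myeloid cells, was in 4.62% of summit windows against 1.04% of flanks (difference 3.57 points, 2.98 to 4.22, and 1.02% of all windows). TTGC and AA with any 2 bases between, which C/EBP factors of granulocytes and monocytes bind, was in 16.5% against 8.90% (7.60 points, 6.44 to 8.79, 10.7% of all windows). TGACTCA or TGAGTCA, the AP-1 site, was in 9.09% against 3.27% (5.82 points, 4.97 to 6.72, 3.07% of all windows). The E-box CAGCTG was in 16.8% against 8.68% (8.14 points, 6.97 to 9.33, 6.94% of all windows), and the MYB sites (CAACTG or CAACGG, or the same with T as the first base) were in 20.9% against 16.9% (4.04 points, 2.70 to 5.40, 18.1% of all windows). The CTCF core, the site of the protein that anchors chromatin loops, was in 1.72% against 0.152%, and in 0.0732% of all windows. CCGGAAGT was in 0.405% against 0.111%, in 20 regions, and 0.0950% of all windows held it.

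The E-box CACCTG was less frequent at the summits than beside them (14.8% against 20.1%, −5.21 points, −6.47 to −3.93, 14.8% of all windows). AGATAA, the GATA site, was at 8.12% against 11.1% (−2.97 points, −3.93 to −1.97, 14.7% of all windows), but against windows of the same GC content the difference was 0.16 points (−0.59 to 0.96). The IRF site, GAAA and GAAA with any 2 bases between, was at 3.02% and 3.03% (3.65% of all windows), and it was 0.90 points above GC-weighted windows (0.44 to 1.42). TGGGGGG, the core that GLIS zinc fingers bind, was at 2.75% and 3.11% (2.22% of all windows), a difference whose interval ran from −0.91 to 0.24 points, and it was 1.19 points below GC-weighted windows (a difference of −1.19, −1.63 to −0.70). Of the regions, 1626 (32.9%) had none of the Runt, GAGGAAGT, AP-1, C/EBP, CAGCTG and CTCF sequences in the summit window.

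**Figure D2:**
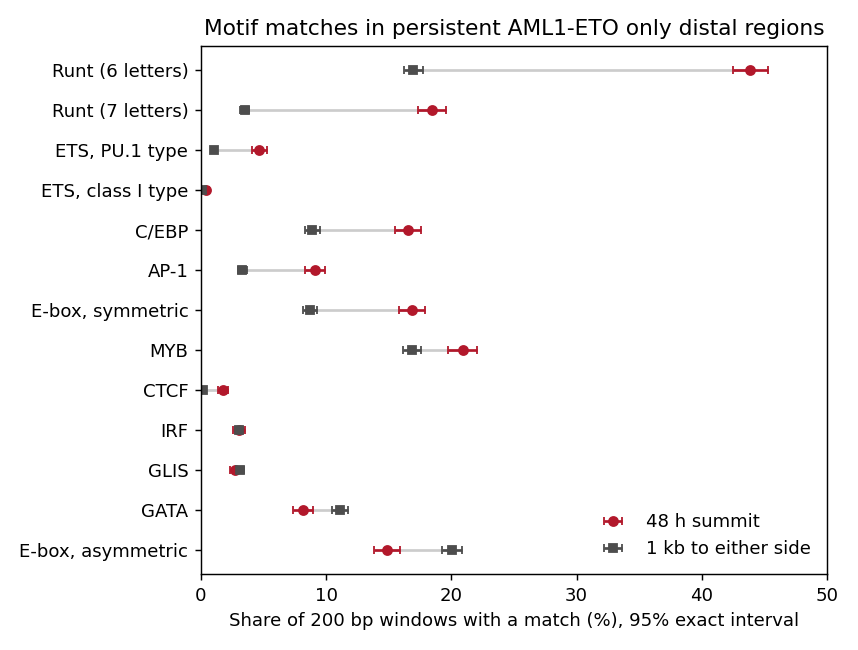
Share of 200 bp windows with a match (x axis, percent) at the 48 h summit (red circles) and 1 kb to either side (dark squares) of the 4940 regions, for 13 sequences on the y axis, with 95% exact intervals. Symmetric and asymmetric E-boxes are CAGCTG and CACCTG, and class I ETS is CCGGAAGT; the 6-letter Runt site has the widest gap, 43.9% against 17.0%.

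The Runt matches clustered at the summit itself. With arrays left out, the highest density was 9.51 matches per 100 regions in the 20 bp step centred at +10 bp. The mean density was 6.57 within 50 bp of the summit and 1.88 beyond 500 bp, a ratio of 3.50. This ratio was 3.17 in shared regions and 2.50 in 48 h only regions. Among regions with a match within 100 bp of the 48 h summit (2128), the nearest match lay a median of 30 bp (28 to 33) from it. For the 12 h summit (1981 regions) this median was 31 bp (29 to 34). The limit of 100 bp bounds both medians. Both come from the same set of regions, and a difference between the times was not tested.

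Runt matches were more frequent in persistent regions than in those that appeared by 48 h. The share was 33.4% in 48 h only regions, 10.4 points lower (7.37 to 13.4). Within bands of −log10 q at 48 h the difference was 5.21 points (1.33 to 8.99) from 10 to 15, 7.48 (1.10 to 13.6) from 15 to 25 and 14.0 (1.76 to 24.7) above 25, the last against 67 regions. The difference was therefore present in each band. The top band has no upper limit, and −log10 q reached 805 in persistent and 80.5 in 48 h only regions, so strength was not matched within it. C/EBP matches were also more frequent than in 48 h only regions (16.5% against 11.9%, 4.60 points, 2.39 to 6.61), as were MYB matches (3.54 points, 1.03 to 5.89). Within bands the C/EBP difference was 3.28 points (0.46 to 5.91) from 10 to 15. From 15 to 25 it was 3.34 with an interval that included 0 (−1.61 to 7.44). Above 25 it was 11.4 (2.85 to 15.6), against 4 matches in 67 regions. MYB matches were not split by band. CTCF matches were less frequent, at 1.72% against 4.19% (−2.47 points, −3.80 to −1.39), and this held from 10 to 15 (−2.36, −3.94 to −1.07) and from 15 to 25 (−3.42, −6.77 to −1.23), while above 25 the interval included 0. AP-1 matches differed by −1.22 points, with an interval from −3.23 to 0.58.

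Shared regions had a Runt share of 41.3%, 2.55 points lower than the persistent regions (0.67 to 4.44). Shared regions were stronger, and within bands the difference was 6.10 points (1.81 to 10.2), 12.0 (8.22 to 15.8) and 4.95 (2.01 to 7.89). Without arrays the overall difference was 1.81 points with an interval from −0.09 to 3.70, with at least 50% of the region covered at 12 h it was 1.78 (−0.54 to 4.10), and with the limit on −log10 q at 5 it reversed to −2.06 points (−3.59 to −0.53), so the overall value depends on the limit, the coverage asked for and the arrays. The site types differed. TGTGGT was 3.91 points more frequent (2.07 to 5.74) and TGCGGT 1.41 points less frequent (−2.47 to −0.34) than in shared regions. In genome windows weighted to the GC content of each class, TGCGGT was in 3.38% for persistent and 4.12% for shared regions. The classes lay 4.45 (3.72 to 5.24) and 5.12 (4.38 to 5.90) points above these shares, intervals that overlapped. For TGTGGT the weighted shares were 15.7% and 14.7%, and the classes lay 22.7 (21.4 to 24.1) and 19.8 (18.6 to 21.1) points above.

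Other sequences differed from shared regions in both directions. Among those less frequent were CAGCTG at 16.8% against 22.2% (−5.43 points, −6.93 to −3.92), GAGGAAGT at 4.62% against 6.21% (−1.60, −2.46 to −0.74) and TGGGGGG at 2.75% against 4.96% (−2.21, −2.94 to −1.48). More frequent were AGATAA at 8.12% against 5.81% (2.31, 1.34 to 3.29) and the IRF site at 3.02% against 1.97% (1.04, 0.45 to 1.66). The CAGCTG difference had the same direction in each band of −log10 q, from −3.83 to −5.38 points with intervals below 0. The shared regions were chosen for an ETO2-GLIS2 peak and were richer in GC, with a mean of 55.3% in the summit window against 49.9%. In genome windows weighted to the GC content of each class, TGGGGGG was in 3.94% for persistent and 6.01% for shared regions, and the classes lay 1.19 and 1.05 points below these shares (differences of −1.19, −1.63 to −0.70, and −1.05, −1.60 to −0.45). For CAGCTG the weighted shares were 11.2% and 14.2%, and the classes lay 5.62 (4.58 to 6.69) and 8.08 (6.999 to 9.18) points above them. For GAGGAAGT they were 1.16% and 1.13%, with the classes 3.46 (2.89 to 4.08) and 5.09 (4.47 to 5.75) points above. For AGATAA the classes lay 0.16 (−0.59 to 0.96) and 0.67 (0.08 to 1.31) points above, and for the IRF site 0.90 (0.44 to 1.42) and 0.57 (0.23 to 0.97).

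The strength of the 12 h peak moved with the Runt and C/EBP shares. The rule did not grade this strength, but it was related to the graded −log10 q at 48 h (Spearman's rho 0.56). From the weakest to the strongest of 4 equal groups by −log10 q at 12 h (1235 regions each), the Runt share was 36.5%, 41.2%, 46.1% and 51.7%, a difference of 15.1 points between the end groups (11.2 to 19.0). TGTGGTT went from 13.6% to 24.8% (11.2 points, 8.09 to 14.2), C/EBP from 12.9% to 20.3% (7.45 points, 4.52 to 10.4) and GAGGAAGT from 3.97% to 6.32% (2.35 points, 0.61 to 4.12). CTCF went the other way, from 2.43% to 1.21% (−1.21 points, −2.34 to −0.15). AP-1 differed by 0.08 points (−2.15 to 2.32) and CAGCTG by 0.81 points (−2.16 to 3.77). These are 7 comparisons on 1 grading, and the intervals were not adjusted for their number. The Runt share also rose over the bands of −log10 q at 48 h, from 36.8% to 46.1% and 49.8% in persistent regions. In shared regions it was 30.7%, 34.0% and 44.8%, and in 48 h only regions 31.6%, 38.6% and 35.8%. A relation to strength at 12 h apart from that at 48 h was not tested.

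**Figure D3:**
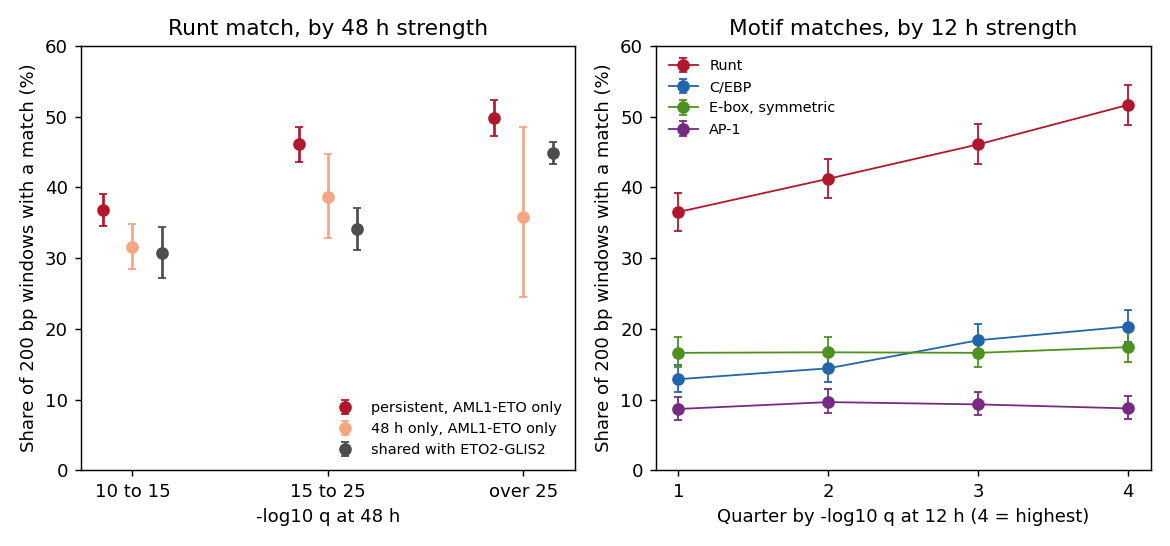
Share of 200 bp summit windows with a match (y axes, percent, 95% exact intervals). Left, the Runt share by −log10 q at 48 h (x axis) in persistent (red), 48 h only (light) and shared (dark) regions; right, 4 sequences by those 4 groups of −log10 q at 12 h (x axis) in persistent regions, where the Runt share went from 36.5% to 51.7% while AP-1 was 8.66% and 8.74% in the end groups.

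Regions with and without a Runt match were compared for 8 other sequences. C/EBP was in 16.4% of regions with a Runt match and 16.6% of those without (difference −0.21 points, −2.28 to 1.89), AP-1 in 9.23% and 8.98% (0.25, −1.35 to 1.89) and GAGGAAGT in 4.15% and 4.98% (−0.82, −1.98 to 0.37). Of the 8, IRF alone had an interval that left out 0, at 3.78% and 2.42% (1.37 points, 0.40 to 2.39). A region usually had few Runt matches: 543 regions (11.0%) had at least 2 in 200 bp, 144 (2.91%) at least 3 and 69 (1.40%) at least 5.

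A small set of regions had very many. Arrays, taken here as 10 or more Runt matches in the 1 kb around the summit, a definition added after seeing the data, made up 84 of the 4940 regions (1.70%, 1.36 to 2.10). They were 19 of 5681 shared regions (0.334%), 5 of 1193 in the 48 h only class (0.419%) and 5 of 1594 persistent AML1-ETO only promoter peaks (0.314%). The difference was 1.37 points from shared regions (0.99 to 1.78) and 1.28 points from 48 h only regions (0.64 to 1.75). With at least 5 or at least 20 matches in place of 10, both differences kept intervals above 0.

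In 82 of the 84 arrays at least 90% of the matches were on 1 strand, as in the sequences printed above. Few were regular tandem repeats: 8 of the 84 (9.52%) matched themselves at an identity of at least 75% in the 400 bp around the summit. The KCNF1 and B3GNTL1 arrays printed above reached this limit, and the SEMA4D and BDH1 arrays did not. The median identity was 59.6% in arrays and 32.2% in the other regions. Of the arrays, 30 (35.7%, 25.6 to 46.9) lay within 5 Mb of a chromosome end, against 607 of the 4856 other regions (12.5%, 11.6 to 13.5). Arrays had a median fold of 10.0 against 7.28 and a median −log10 q of 28.0 against 17.4 in the other regions. A −log10 q of at least 100 was reached by 10 of 84 arrays and 69 of 4856 other regions. The array with the most matches, 118323 bp upstream of the start of THBS2, an anti-angiogenic matrix protein, had 72 in 1 kb and a fold of 13.0 at 48 h and 10.3 at 12 h. B3GNTL1 followed with 59 (fold 12.0 and 11.2), then a region near TNP1, a sperm chromatin protein, with 55 (29.4 and 19.8), and one near SDC1, a heparan sulfate proteoglycan, with 53 (13.2 and 12.0).

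Windows dense in the 5-base core were also more frequent in the persistent regions. A 200 bp summit window with 10 or more GTGGT, also defined after seeing the data, was found in 93 persistent regions (1.88%, 1.52 to 2.30), 11 shared regions (0.194%) and 6 in the 48 h only class (0.503%). The difference was 1.69 points from shared (1.31 to 2.12) and 1.38 points from 48 h only regions (0.70 to 1.88). In 41 of the 93 there was no exact Runt site in the window, as in PRKCA, the gene of protein kinase C alpha, where the fold was 18.3 at 12 h and 19.9 at 48 h. The array in EML1, a microtubule-binding protein gene, had 49 cores and a fold of 28.0 and 19.1. One of the 41, near TPTE on chromosome 21, had a fold of 7.28 and 3.77. Regular tandem repeats of any sequence, at an identity of at least 75%, were in 66 persistent (1.34%), 26 shared (0.458%) and 12 of the 48 h only regions (1.01%). The persistent share was 0.88 points above shared (0.52 to 1.27) and 0.33 points above 48 h only regions (−0.47 to 0.89). An excess of the core apart from that of repeats was not tested.

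The arrays of the genome were then looked at without regard to peaks. Chromosomes 1 to 22 held 920 Runt-dense loci with at least 10 matches in 1 kb. AML1-ETO peaks overlapped 28.7% of them at 12 h (25.8 to 31.7) and 35.2% at 48 h (32.1 to 38.4), and ETO2-GLIS2 peaks 4.57% (3.31 to 6.12) and 5.76% (4.34 to 7.47). The same lists overlapped 3.93%, 6.54%, 1.58% and 1.72% of all 1 kb tiles. Both fusion proteins thus exceeded their own tile share at these loci, AML1-ETO further. At 174 loci (18.9%) AML1-ETO was called at both times and ETO2-GLIS2 at neither, 3 loci had ETO2-GLIS2 alone, and 565 (61.4%) had no peak in any list. Among the 246 loci with 30 or more matches, 58.1% (51.7 to 64.4) had an AML1-ETO peak at 48 h, against 26.2% (21.4 to 31.4) of the 317 loci with 10 to 14, 24.1% with 15 to 19 and 30.5% with 20 to 29. The ETO2-GLIS2 shares at 48 h in the same order of matches, from 10 to 14 upwards, were 3.79%, 2.94%, 6.42% and 9.76%. The 920 loci were 128 to 5123 bp long, and the groups by number of matches were not matched for length.

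At the 518 loci made of 200 bp tiles with 10 or more GTGGT and no exact Runt site, AML1-ETO was again called more often than ETO2-GLIS2. AML1-ETO peaks overlapped 24.5% (20.9 to 28.5) at 12 h and 28.4% (24.5 to 32.5) at 48 h. ETO2-GLIS2 peaks overlapped 0.579% (0.12 to 1.68) and 1.35% (0.545 to 2.76), intervals that include their tile shares of 1.58% and 1.72%. Loci and tiles differ in length. Reads from repeats can map to several places, and the number of repeat units in U937 may differ from the reference. The part of either in these values was not tested.

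Repeats were frequent among the 10 regions with the highest −log10 q. The region with the second-highest −log10 q was chr13:111036154-111040863 in an intron of COL4A2, a chain of basement-membrane collagen, with a fold of 44.2 at 12 h and 67.2 at 48 h and a −log10 q of 471 and 789. Next came chr3:197185121-197189484, in an intron of a non-coding gene near BDH1, an enzyme of ketone metabolism, at a fold of 41.8 and 53.2. The SOD2 region, chr6:160129673-160135867 in an intron of the mitochondrial superoxide dismutase gene, was at 29.9 and 39.2. The region in SEMA4D, an immune semaphorin, chr9:91986768-91987579, was at 32.4 and 42.7, and the one near KCNF1, a potassium channel subunit, chr2:11092469-11095080, at 39.4 and 52.8. All 5 are repeats of the kinds printed above, and summits at 12 h and 48 h lay 0 to 45 bp apart.

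Of the other 5 strongest, the region downstream of RNASE2, an eosinophil granule ribonuclease, chr14:21438450-21441289, had a fold of 35.2 at 12 h and 58.7 at 48 h, and the exonic region in ANKRD44, a regulatory subunit of a phosphatase complex, chr2:198060890-198065590, had 42.2 and 49.0. Neither is a tandem array. The region upstream of RNF19A had 24.7 and 42.6, with 42 cores in 200 bp. The region near ZNF707 and the 313 bp region chr1:236260426-236260738 near NID1 had a −log10 q at 48 h of 805 and 389. Their folds of 13.8 and 11.2 were low for such values, though above the upper quartile of 9.79 of all regions. The NID1 window is a 29 bp repeat with 7 AP-1 sites and no Runt site.
NID1, chr1:236260431-236260630, AP-1 sites in capitals: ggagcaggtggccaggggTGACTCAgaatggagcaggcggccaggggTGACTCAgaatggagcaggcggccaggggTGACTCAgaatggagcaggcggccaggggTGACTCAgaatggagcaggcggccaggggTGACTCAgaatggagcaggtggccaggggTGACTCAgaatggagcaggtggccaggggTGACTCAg
It is printed because 2 of the 4700 regions searched for repeated AP-1 sites, which left out 1 chromosome, had 3 or more in 200 bp, and it had the most.

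A low fold marked 1 stretch of chromosome 2. Of the 4940 regions, 18 had a fold under 4 at 48 h, and 8 of the 18 lay between 173155959 and 173345126 around ITGA6, the alpha subunit of a laminin receptor. All 8 regions nearest to ITGA6 had a fold between 2.46 and 3.96, with a median −log10 q of 13.4, below the 17.6 of all regions, and a highest of 31.5. Read numbers and the input signal were not analysed here, and the cause was not tested.

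By nearest gene start, 3417 of 19222 protein-coding genes (17.8%) had at least 1 region. Of these, 2461 had 1 and 64 had 5 or more. A nearest start is a label of place and not a target, since 1035 regions (21.0%) lay more than 100 kb from it and 805 (16.3%) lay inside a different gene. The genes with the most regions were FOXN3, a forkhead repressor, JARID2, a subunit of the Polycomb complex PRC2, LRMDA and ZNF703, with 9 each. ITGA6, NECTIN1, TNS3 and XYLT1 followed with 8, and CLIC6 and ERN1, the kinase that senses unfolded protein, were the first of those with 7. All 9 regions of FOXN3 and LRMDA lay within the gene, both of which are long (494279 and 1128545 bp), and the 9 of ZNF703 lay 75044 to 428026 bp away. In NECTIN1, 7 of 8 summit windows had a Runt match, in FOXN3 2 of 9, and 2 more FOXN3 windows held 33 and 29 cores.

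RUNX1, whose Runt domain AML1-ETO carries, had 11 regions within its annotated span, and the 7 counted for CLIC6 are among them. The strongest, chr21:37068988-37070498 in an intron, had a fold of 10.3 at 12 h and 16.4 at 48 h. The region chr21:36252834-36253024 was the narrowest of the 11, at 191 bp, and covered a 157 bp RUNX1 exon with 20 bp before and 14 bp after it, at a fold of 4.86 and 7.03. Reads from the integrated AML1-ETO cDNA align to RUNX1 coding exons, and such reads and binding at the exon cannot be told apart here. RUNX1T1 and GLIS2 had no region in the gene, and CBFA2T3, the gene of ETO2, had 1.

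Gene lists, chosen with earlier results of these data known, were counted by nearest start beside the 17.8% of all genes and beside the shared regions (18.0% of all genes). Among myeloid transcription factors, 13 of 24 had a persistent region and 18 had a shared one. They included CEBPB, CEBPD, IRF8, EGR1, ETV6, IKZF1, LMO2, MEIS1 and RUNX3, while the strongest regions lay near EGR1 (26561 bp downstream, fold 22.2 at 12 h and 27.6 at 48 h), in RUNX1 and near KLF4 (652738 bp upstream, 6.99 and 14.0). The EGR1 window held no Runt match. Among 16 stem cell and leukaemia genes, 11 had a persistent region and 9 a shared one. KIT, the stem cell factor receptor, had one 89158 bp downstream (19.7 and 17.1), UBASH3B, a phosphatase, had one in an intron (4.86 and 12.0), and CD34, a progenitor surface protein, had one 66823 bp downstream (8.51 and 10.8).

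Among 17 feedback genes of the MAPK and NF-kB pathways, which switch these signals off again, 10 had a persistent region and 14 a shared one. The strongest were near SPRY2, an inhibitor of receptor tyrosine kinase signalling (532620 bp upstream, fold 20.8 at 12 h and 18.5 at 48 h, and 113425 bp upstream, 17.6 and 14.4), and near SPRY1 (191721 bp downstream, 7.92 and 17.6). Among 21 myeloid surface receptors, 9 had one and 10 a shared one. They included the chemokine receptor CX3CR1 (20657 bp downstream, 18.2 and 21.9), the endotoxin receptor TLR4 (121993 bp downstream, 14.3 and 12.3) and the TNF receptor TNFRSF1B (exonic, 5.11 and 7.73). Among 17 cytoskeleton and adhesion genes, 7 had one and 8 a shared one, with regions 102672 and 87939 bp upstream of the hyaluronan receptor CD44 at 14.6 and 13.0 and at 8.81 and 11.5.

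Among 17 AP-1 family genes, 5 had a persistent region and 10 a shared one. BACH1, a haem-sensing repressor, had an intronic region at 20.7 and 13.5, BACH2 one at 11.5 and 14.3, and MAF, a macrophage bZIP factor, one 601326 bp away inside WWOX at 8.20 and 11.8. Among 14 granule and lysosomal proteins, 4 had one and 4 a shared one. CTSL, the protease cathepsin L, had an array 10619 bp upstream with 19 Runt matches in 1 kb at 10.6 and 15.1, and RNASE2 had a second region at 9.72 and 10.0. Among 16 partners of AML1-ETO, 4 had one and 8 a shared one. By nearest start, 7 of the 8 lists had a larger share than the 17.8% of all genes by more than 10 points, and the exception was the list of partners. Counted by regions within the gene body, found in 10.8% of all genes, the lists ran from 0 of 14 granule and lysosomal proteins and 2 of 17 AP-1 family genes to 6 of 16 stem cell and leukaemia genes. By nearest start, 6 of the 8 lists had more genes with a shared region than a persistent one.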

How the data were processed

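ChIP-seq peaks of HA-tagged AML1-ETO and ETO2-GLIS2 in U937 clones at 12 h and 48 h of doxycycline were analysed, 1 peak list per fusion protein and time. Per the submitters' processing notes and methods, the authors aligned reads to hg19 with Bowtie2 2.2.9, used SAMtools 1.7 and called peaks for each ChIP library against its input with MACS2 2.1.1.20160309. deepTools was also named. Caller settings, removal of duplicates and removal of artefact regions were not given in the sources used here. The deposited fold enrichment is the ratio of signal to local background at the summit, with no further normalization by the authors. The deposited −log10 p and −log10 q values are those of the peak caller, and the lists ended at a −log10 q between 1.30 and 1.31. The deposited score is the whole part of 10 times −log10 q and was not tested separately. Coordinates were used as deposited by the authors and are printed 1-based. Input libraries and reads were not analysed here. The study lists the reads and mapping rate of each library, and these totals were not used, so differences in depth between libraries were not accounted for. Intervals cover counting error only.

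Members and gene lists were chosen with earlier results of these data known. Regions were selected on chromosomes 1 to 22 with start sites, introns and exons from GENCODE 44 mapped to GRCh37. Matches were searched on both strands of GRCh37 in 200 bp around the summit, in windows 1 kb to either side, and in all 200 bp windows of chromosomes 1 to 22, which were also weighted to the GC content of the regions in steps of 2%. Shares have Clopper-Pearson 95% intervals, differences Newcombe intervals and medians order-statistic intervals. Each fusion protein and time had 1 library, so no p-value was computed. The named regions were the 10 with the highest −log10 q at 48 h, the 5 with the highest fold at 12 h, the 3 strongest of each gene list, the 10 with the most Runt matches, those in the fusion genes, those just above the limit and those of the 10 genes with the most regions. Some regions that this rule names are not reported here. Arrays, loci dense in a site and other sequences shown were chosen after seeing the data. Alternatives changed the −log10 q limit, the overlap, the summit distance, the start sites, the windows and the background. Scripts used Python 3.11.15, numpy 2.4.6, scipy 1.17.1, pandas 2.3.3, pysam 0.24.0, matplotlib 3.10.9 and bedtools 2.31.1, and were tested on simulated data.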

Additional observations from a re-analysis of the deposited data

How the results depend on the processing

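Of the results recomputed under each alternative, 85 kept their direction, side of the threshold or size, 10 moved, 3 reversed, 2 had an interval that came to include 0 and 1 had an interval that no longer did. The number of regions was 9829 with a −log10 q limit of 5, 2100 with a limit of 20 and 3042 when 12 h peaks had to cover at least 50% of the region. The Runt share stayed above flanks in all 15 alternatives run (14.96 to 32.8 points) and above 48 h only regions in all 15 (5.21 to 14.0 points). Against shared regions it kept its interval above 0 in 12 of 15. It reversed to −2.06 points with the limit of 5, and its interval reached 0 with 50% coverage (1.78 points) and without Runt arrays (1.81 points, an alternative added after seeing the data). The intron share was 60.9% with the limit of 20 and 60.6% with start sites of protein-coding genes alone. The median summit distance was 98 bp and 24 bp with the limits of 5 and 20, 39 bp with 50% coverage and 26 bp where summits within 200 bp were required, which the last requirement lowers by construction. Against GC-weighted windows the GATA difference reversed to 0.16 points and the IRF difference to 0.90 points, and the GLIS difference, at −1.19 points, had an interval below 0. Counting regions within gene bodies gave 2067 genes in place of 3417. Causes of the other shifts were not tested.

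No paired analysis was possible because each fusion protein and time had 1 ChIP library and no result comes from a test across replicates. Leaving out a replicate was not possible for the same reason. Repeats limit the mapping of reads at arrays, and the shorter ETO2-GLIS2 lists limit what the absence of a peak shows.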
